A study of Mus musculus with 10 samples.

Results

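Kit, its ligand Kitl and 8 genes of mast cells and basophils (Cpa3, Mcpt4, Mcpt8, Cma1, Tpsb2, Fcer1a, Ms4a2 and Hdc) were followed in RNA-seq of mouse lung. All rows of the deposited table with these symbols were taken, so that 10 of 24394 gene symbols and 14 of 66548 transcript rows were members. The 10 libraries came from lungs of female BALB/c mice that were 8 weeks old at purchase. Saline mice (n = 3) were the unsensitized controls. OVA mice (n = 3) were sensitized 2 times by injection of ovalbumin with alum and challenged through the nose on 4 days, and received vehicle only. Herb mice (n = 4) had the same ovalbumin schedule plus an oral ethanol extract of Descurainia sophia seeds (DSE) for 7 days, so that OVA vs. Saline shows the asthma model, Herb vs. OVA the extract, and Herb vs. Saline what still differed from the controls. Levels were given as FPKM, the fragments on a transcript per kilobase of its length, relative to all mapped fragments, in single rows and summed over the rows of a symbol. No member was chosen by its level, although all were listed with earlier results of these data known.

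Kit is the receptor tyrosine kinase that binds stem cell factor, the product of Kitl, and mast cells need this signal to survive. Mast cells store proteases and histamine in granules and release them when IgE bound to its high-affinity receptor is cross-linked by allergen. In the lung, Kit is not a mast cell gene alone, because capillary endothelial cells and some innate lymphoid cells carry it too, whereas the granule proteases and the receptor chains are largely restricted to mast cells and basophils. For that reason Kit was described apart from the protease and IgE receptor genes.

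Kit was the member with more than 1 expressed row. The rows NM_001122733 and NM_021099 differ inside the coding sequence by 12 bases, or 4 codons, at the end of exon 9, at chr5:75639147-75639158 of GRCm38 on the plus strand, where the form with them uses a later splice site. They are shown because the Kit result splits along them, with 40 bases of transcript on either side and the 12 extra bases in capitals.
NM_001122733: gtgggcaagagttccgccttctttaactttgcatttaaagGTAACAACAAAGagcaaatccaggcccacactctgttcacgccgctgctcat
NM_021099: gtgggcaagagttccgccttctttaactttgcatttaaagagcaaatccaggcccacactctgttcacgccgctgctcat
Only fragments that cover this stretch, or the 5′ end, where the annotated starts differ as well, can tell the rows apart.

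The promoters of the members differed in base composition. In the RefSeq promoter table of GRCm38.p6, which covers 250 bases before to 50 bases after each start, 9 of the 10 members had an entry. Both strands were searched for GATAA, a form of the GATA factor site, which reads TTATC on the other strand, and 25.4% of 32851 promoters held it. Other forms of the site were not searched. Kit and Kitl had 69.0% and 68.7% G and C and 20 and 28 CpG dinucleotides, against medians of 52.7% and 7 over all promoters, and no GATAA. Cpa3 had 43.3% G and C with 1 match and Ms4a2 41.0% with 3 matches, and Mcpt4, Cma1 and Fcer1a held 1 match each, whereas Mcpt8 and Hdc held none. The sequences of 4 members show the contrast, with matches in capitals, in the order Kit (chr5:75574737-75575036, plus strand), Kitl (chr10:100015571-100015870, plus strand), Cpa3 (chr3:20242132-20242431, minus strand) and Ms4a2 (chr19:11623670-11623969, minus strand).
Kit: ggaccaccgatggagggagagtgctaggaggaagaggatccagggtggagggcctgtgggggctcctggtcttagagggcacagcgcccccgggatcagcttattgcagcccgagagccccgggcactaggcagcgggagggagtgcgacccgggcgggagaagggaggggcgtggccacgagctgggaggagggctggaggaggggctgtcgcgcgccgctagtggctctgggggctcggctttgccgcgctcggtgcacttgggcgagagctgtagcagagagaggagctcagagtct
Kitl: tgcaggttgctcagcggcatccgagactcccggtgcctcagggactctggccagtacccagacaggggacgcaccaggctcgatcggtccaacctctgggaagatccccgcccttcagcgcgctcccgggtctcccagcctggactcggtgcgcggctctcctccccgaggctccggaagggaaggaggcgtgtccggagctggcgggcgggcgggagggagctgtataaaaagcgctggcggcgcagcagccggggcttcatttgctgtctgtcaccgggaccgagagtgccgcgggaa
Cpa3: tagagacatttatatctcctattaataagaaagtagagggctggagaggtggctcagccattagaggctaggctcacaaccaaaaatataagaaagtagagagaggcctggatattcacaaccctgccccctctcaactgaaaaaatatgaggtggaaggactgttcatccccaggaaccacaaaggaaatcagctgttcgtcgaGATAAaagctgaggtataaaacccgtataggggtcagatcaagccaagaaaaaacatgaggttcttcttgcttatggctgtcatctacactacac
Ms4a2: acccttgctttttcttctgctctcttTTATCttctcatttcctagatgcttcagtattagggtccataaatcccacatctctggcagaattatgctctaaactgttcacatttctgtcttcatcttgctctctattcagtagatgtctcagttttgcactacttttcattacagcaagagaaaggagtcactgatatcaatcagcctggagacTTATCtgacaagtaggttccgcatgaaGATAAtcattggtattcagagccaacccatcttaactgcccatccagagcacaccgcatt

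Depth, read from the value of 1 fragment, was 14700000 to 29500000 mapped fragments per library. The libraries differed in what the fragments covered. Protein-coding RefSeq rows took 33.0% to 33.3% of fragments in Saline, 11.9% to 14.9% in OVA and 19.3% to 25.8% in Herb, and the ribosomal precursor Rn45s stood at 1201 to 1386, 10014 to 13531 and 3230 to 7019 FPKM. The median gene was lower by 0.75 on the log2 scale in OVA vs. Saline and higher by 0.48 in Herb vs. OVA, and the member values were also computed after rescaling each library to its 75th percentile of rows above 0, after quantile normalization and after rescaling to the summed FPKM of protein-coding rows. These moved the median gene of OVA vs. Saline to -0.19, -0.02 and 0.36. Gapdh, which every cell uses, is listed at 0 in 9 of 10 libraries, so an exact 0 is reported below as listed at 0. Sftpc of alveolar type 2 cells, at a mean of 2870 FPKM in Saline, 310 in OVA and 925 in Herb, marked all groups as lung.

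In the FPKM as deposited, Kit was lower in every OVA library than in any Saline or Herb library. Kit was not compared library by library after rescaling. The summed rows stood at 7.65, 7.69 and 7.85 FPKM in Saline, 2.76, 2.15 and 1.61 in OVA and 4.27, 16.5, 3.80 and 5.09 in Herb. Saline was tight at 7.73 ± 0.107 (SD, n = 3), OVA was 2.17 ± 0.577 (SD, n = 3), and Herb was 7.42 ± 6.10 (SD, n = 4), with 1 library far above the rest and the other three below Saline. In limma on log2(FPKM + 1), Kit fell in OVA vs. Saline by 1.48 ± 0.43 on the log2 scale (adjusted p = 0.0140). At this threshold 61.2% of all gene sums were called in OVA vs. Saline, 5.37% of them higher. The call was lost after rescaling to the 75th percentile (-0.87, adjusted p = 0.105), after quantile normalization (-0.65, 0.235) and on the protein-coding sum (-0.25, 0.653). In these bulk samples, fewer cells with Kit and less Kit RNA per cell cannot be told apart.

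Herb vs. OVA gave a rise of Kit by 1.20 ± 0.40 on the log2 scale (limma, adjusted p = 0.0367), in a comparison where 44.5% of gene sums were called and 99% of these were higher. Without Herb replicate 2, the library at 16.5 FPKM, the rise was 0.77 with an adjusted p of 0.0205. The call was lost without Herb replicate 4 (adjusted p = 0.0502), without any single Saline library (0.0511 to 0.0523) and without any single OVA library (0.0656 to 0.103). After rescaling to the 75th percentile the difference was 0.73 (adjusted p = 0.248), and 0.482% of gene sums were called. Herb vs. Saline differed by -0.28 ± 0.40 (adjusted p = 0.638, with 26.1% of gene sums called), and by -0.70 without Herb replicate 2 (adjusted p = 0.0159).

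**Figure D1:**
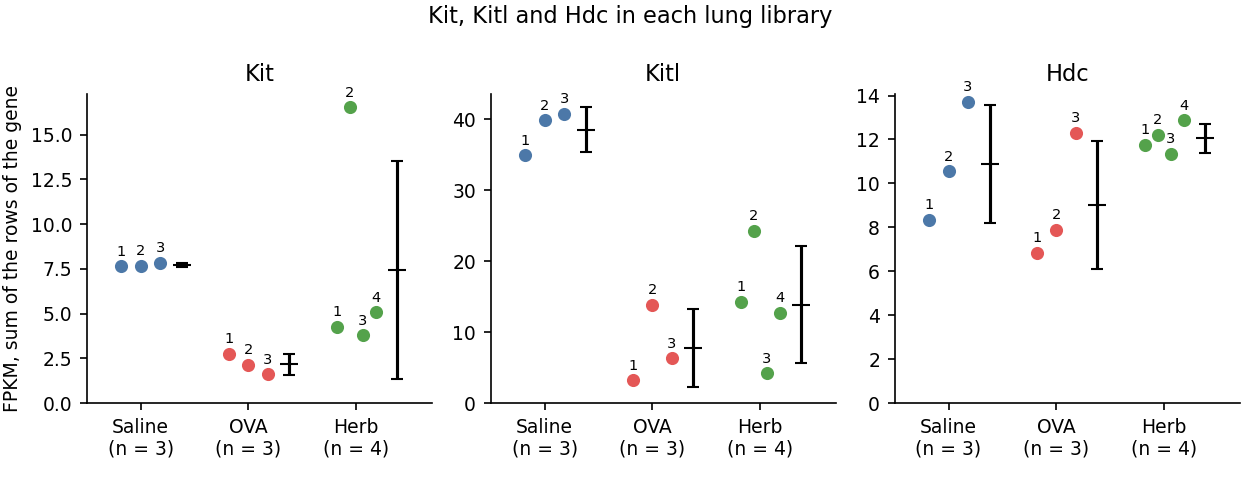
FPKM summed over the rows of Kit, Kitl and Hdc (vertical axes, each from 0) in the Saline, OVA and Herb libraries, with points numbered by replicate and bars for mean ± SD. Kit in OVA lay below all other libraries, Herb replicate 2 stood at 16.5 FPKM for Kit, the Saline libraries of Kitl (35 to 40.8 FPKM) lay above all others, and the Hdc groups overlapped.

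The rows of Kit moved unequally. NM_001122733, the form with the 12 bases, stood at 2.59, 1.93 and 2.08 FPKM in Saline and is listed at 0, 0.0140 and 0 in OVA. Herb was divided, with 1.64 and 1.32 in replicates 1 and 3 but 0.00105 and 0.00160 in replicates 2 and 4. NM_021099 stood at 5.06, 5.76 and 5.78 in Saline, 2.76, 2.14 and 1.61 in OVA and 2.63, 16.5, 2.48 and 5.09 in Herb. The form with the 12 bases was thus present in all Saline libraries, nearly missing from all OVA libraries and present in 2 of 4 Herb libraries, while the form without them was measured everywhere. The Herb library with the highest Kit held almost none of NM_001122733.

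NM_001122733 took 33.8%, 25% and 26.4% of Kit FPKM in Saline, 0%, 0.650% and 0% in OVA and 38.3%, 0.00637%, 34.7% and 0.0315% in Herb. The OVA vs. Saline difference of -28.2 percentage points reached p = 0.1 in a two-sided exact permutation test, the smallest that 3 against 3 libraries allow, and 0.3 after adjustment over 3 tests. Herb vs. OVA gave p = 0.286 and Herb vs. Saline p = 0.571 in the same exact test. In limma over single rows, fitted without a filter because its mean was under 1 FPKM, NM_001122733 fell in OVA vs. Saline by 1.66 ± 0.38 on the log2 scale (adjusted p = 0.0140, with 24.1% of rows called). It kept that call after rescaling to the 75th percentile (-1.49, adjusted p = 0.0308, with 14.4% called) and lost it on the protein-coding sum (-1.27, adjusted p = 0.0578). The study had put this row forward from the same libraries, so its direction is not independent evidence. NM_021099 was not called in OVA vs. Saline (-1.06 ± 0.53, adjusted p = 0.133, with 44.2% of tested rows called) or Herb vs. OVA (0.95 ± 0.49, adjusted p = 0.162, with 32.4% called). Both rows rest on an assignment of shared fragments by the assembler, whose part in the split was not tested.

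**Figure D2:**
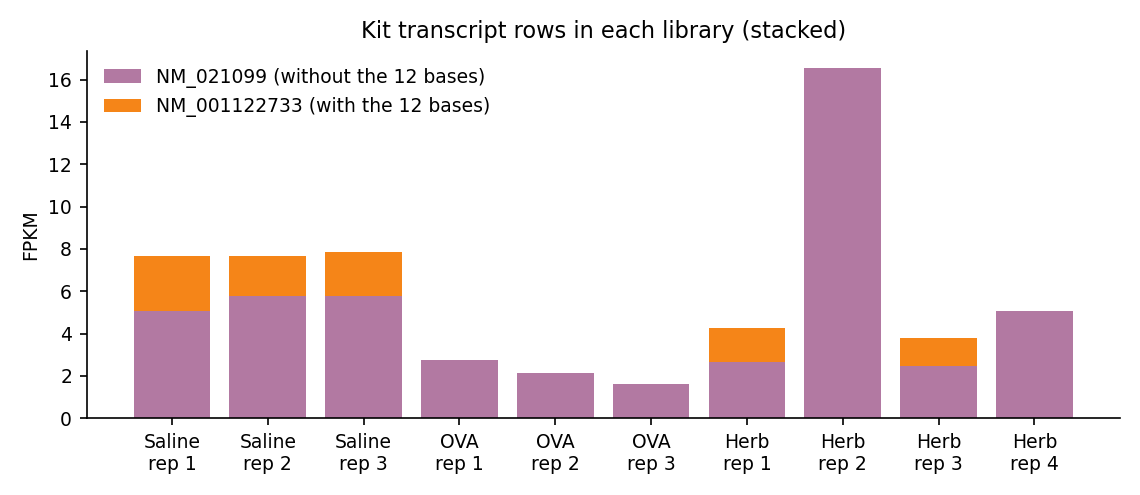
Stacked bars of the FPKM of the Kit rows NM_021099 and NM_001122733 in each library. NM_001122733, with the 12 bases, is visible in the 3 Saline libraries and in Herb replicates 1 and 3, and the bar of Herb replicate 2, at 16.5 FPKM, consists of NM_021099.

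Kitl, the ligand, was the most abundant member per length in Saline. It stood at 35, 39.9 and 40.8 FPKM in Saline, 3.25, 13.9 and 6.32 in OVA and 14.3, 24.3, 4.21 and 12.8 in Herb. Every OVA and every Herb library lay under the lowest Saline library, and OVA and Herb overlapped. Kitl fell in OVA vs. Saline by 2.35 ± 0.58 on the log2 scale (limma, adjusted p = 0.00619), and the fall kept its call after rescaling to the 75th percentile (-1.64, adjusted p = 0.0296, with 43.3% of gene sums called). Quantile normalization (-0.90, adjusted p = 0.227) and the protein-coding sum (-0.94, 0.154) gave no call. Herb vs. OVA differed by 0.74 ± 0.54 (adjusted p = 0.287), and this rested on single libraries, at 0.31 without OVA replicate 1 (adjusted p = 0.704), 1.21 without OVA replicate 2 (0.105), 0.42 without Herb replicate 2 (0.55) and 1.18 without Herb replicate 3 (0.0550). On the protein-coding sum it was -0.03.

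In Herb vs. Saline, Kitl differed by -1.61 ± 0.54 on the log2 scale (limma, adjusted p = 0.0545). Without Herb replicate 2 the difference was -1.94 (adjusted p = 0.0289), and the call was also gained without OVA replicate 1 (0.0442) and without OVA replicate 2 (0.0426), which share in the estimate of the spread. It was -1.17 (adjusted p = 0.0979) without Herb replicate 3, was not called without any single Saline library (0.110 to 0.131), and ran from -1.46 to -0.87 under the other scalings (0.0627 to 0.310). In Herb, Kitl did not overlap with Saline, and Kit did so only in that replicate 2 lay above it while the others lay below. As deposited, the groups did not overlap for 2 of the 3 members with a mean of at least 1 FPKM in OVA vs. Saline, for 1 in Herb vs. OVA and for 1 in Herb vs. Saline, where 67.6%, 50.2% and 43.6% of all gene sums did not overlap.

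Hdc encodes histidine decarboxylase, which makes histamine in mast cells, basophils and several other cell types. It stood at 8.35, 10.6 and 13.7 FPKM in Saline, 6.85, 7.89 and 12.3 in OVA and 11.8, 12.2, 11.4 and 12.9 in Herb. The groups overlapped in all 3 comparisons, and limma called none as deposited, with differences of -0.26 ± 0.22 (OVA vs. Saline, adjusted p = 0.337), 0.42 ± 0.21 (Herb vs. OVA, 0.127) and 0.16 ± 0.21 (Herb vs. Saline, 0.598). The sign of OVA vs. Saline depended on the scaling. It was 0.46 after rescaling to the 75th percentile (adjusted p = 0.121), 0.97 after quantile normalization (0.0174, with 36.3% of gene sums called) and 1.15 on the protein-coding sum (0.00207, with 46.7% called). On that last scale Herb vs. Saline was also higher, by 0.77 (adjusted p = 0.0242, with 21.5% called). Herb vs. OVA turned too, to between -0.38 and -0.15 under the other scalings, none called. Without OVA replicate 3, the highest of its group, Herb vs. OVA was 0.64 (adjusted p = 0.0294) and OVA vs. Saline -0.48 (0.0609). Leaving out other libraries took OVA vs. Saline to -0.09 at the nearest to 0 (without Saline replicate 3), Herb vs. OVA to 0.26 (without OVA replicate 1) and Herb vs. Saline from 0.00018 (without Saline replicate 1) to 0.33 (without Saline replicate 3), none of them called.

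In Saline the order of levels per length was Kitl at 38.6 ± 3.14 FPKM, Hdc at 10.9 ± 2.69 and Kit at 7.73 ± 0.107 (SD, n = 3), and no library of one overlapped with the next. In OVA, Hdc at 9.02 ± 2.90 and Kitl at 7.83 ± 5.49 overlapped, and Kit was lowest at 2.17 ± 0.577. Herb gave means of 13.9 ± 8.25 for Kitl, 12.1 ± 0.655 for Hdc and 7.42 ± 6.10 for Kit (SD, n = 4), and the 3 ranges overlapped.

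**Figure D3:**
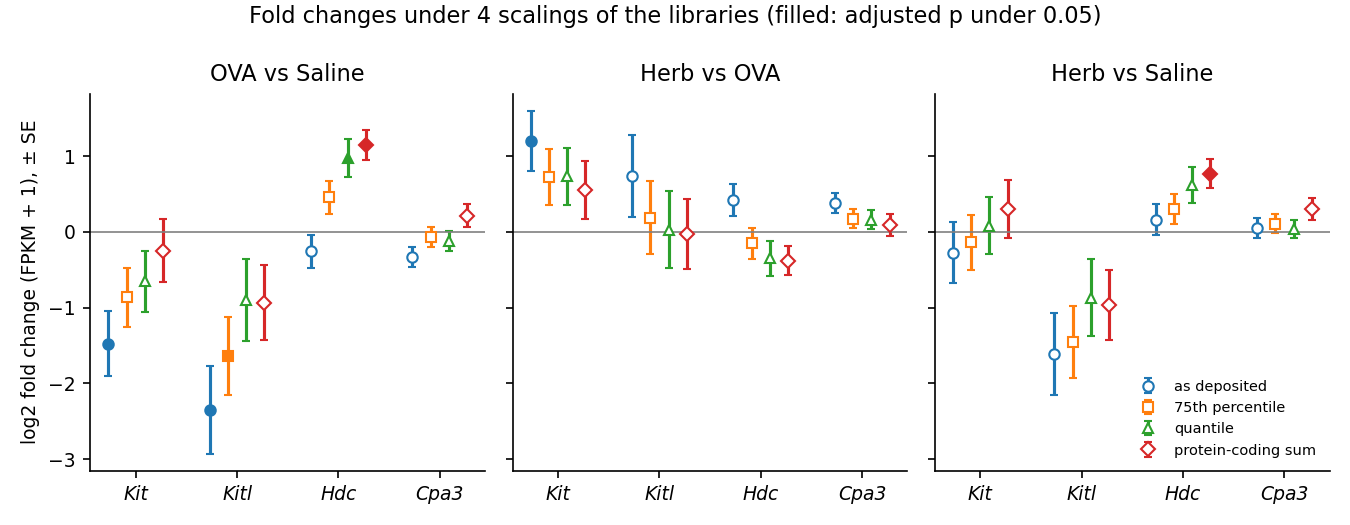
Log2 fold change of FPKM + 1 with SE (vertical axis) of Kit, Kitl, Hdc and Cpa3 in the 3 comparisons, as deposited and under 3 other scalings of the libraries, with filled symbols for an adjusted p under 0.05. In OVA vs. Saline, Kit ran from -1.48 to -0.25 and Kitl from -2.35 to -0.90, Hdc ran from -0.26 to 1.15, and Cpa3 turned from -0.33 to 0.22.

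The granule proteases and IgE receptor chains were close to the limit of detection. None of the 7 genes Cpa3, Mcpt4, Mcpt8, Cma1, Tpsb2, Fcer1a and Ms4a2 had a mean of 1 FPKM, so 3 of the 10 members (Kit, Kitl and Hdc) passed the filter on low values. Their summed FPKM was 0.891 to 1.42 in Saline, 0.254 to 0.762 in OVA and 1.08 to 1.62 in Herb. In fragments, estimated from FPKM, length and depth, Kitl rested on 508 to 4836 per library, Hdc on 299 to 674 and NM_021099 of Kit on 171 to 1278. Cpa3 rested on 6.73 to 24.6, and each of the other 6 genes on at most 8.39. Fitted values of the 7 genes came from limma without the filter, in which 36.5%, 21.3% and 12.5% of gene sums were called in OVA vs. Saline, Herb vs. OVA and Herb vs. Saline.

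Cpa3, mast cell carboxypeptidase, was measured in every library. It stood at 0.828, 0.705 and 0.704 FPKM in Saline, 0.339, 0.618 and 0.228 in OVA and 0.589, 1.15, 0.762 and 0.759 in Herb. All OVA libraries lay below all Saline libraries, and Herb overlapped with both. The differences were -0.33 ± 0.14 in OVA vs. Saline (limma, adjusted p = 0.0935), 0.38 ± 0.13 between Herb and OVA (0.0657) and 0.05 ± 0.13 in Herb vs. Saline (0.858), none of them called. Without OVA replicate 2 they were called, at -0.44 (adjusted p = 0.0365) and 0.49 (0.0344) for the first and second. After rescaling to the 75th percentile they were -0.07 (adjusted p = 0.758) and 0.17 (0.484), and on the protein-coding sum OVA vs. Saline was 0.22 (0.336).

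The other proteases were seen in few fragments, at most 8.39 in a library. Cma1, a chymase, stood at 0.522 and 0.300 FPKM and is listed at 0 in Saline, at 0.0806 in 1 OVA library and 0 in the others, and at 0.109, 0, 0 and 0.143 in Herb. That is an estimated 15.3, 2.0 and 5.0 fragments per group. It was not called in OVA vs. Saline (-0.29 ± 0.13, limma, adjusted p = 0.126), but was called without Saline replicate 3, the library at 0, in OVA vs. Saline (-0.46, adjusted p = 0.00591) and Herb vs. Saline (-0.41, 0.0442). Without Saline replicate 1, the library at 0.522 FPKM, the differences were -0.15 (adjusted p = 0.360) and -0.10 (0.604).

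Mcpt4, another chymase, is listed at 0, 0.0944 and 0.0492 FPKM in Saline, 0.257, 0 and 0 in OVA and 0.136, 0.205, 0.0897 and 0 in Herb. Mcpt8, a protease of basophils, is listed at 0 in all Saline libraries, at 0.0637, 0 and 0 in OVA and at 0.148, 0, 0.0559 and 0.237 in Herb. Tpsb2, a tryptase, is listed at 0, 0.161 and 0.0672 in Saline, at 0 throughout OVA and at 0.214, 0, 0 and 0 in Herb. For these 3 genes limma called no comparison, with adjusted p from 0.175 to 0.831 over the 9 tests and a smallest unadjusted p of 0.0494 for Mcpt8 in Herb vs. Saline, and no adjusted difference was detectable at this depth.

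The IgE receptor chains were as scarce. Fcer1a, the alpha chain that binds IgE, is listed above 0 in 2 libraries, at 0.159 FPKM in Saline replicate 2 and 0.131 in Herb replicate 2, which are 3.40 and 1.93 fragments. Its row was not called in any comparison (limma, adjusted p = 0.451 for OVA vs. Saline and 0.650 for Herb vs. OVA). Ms4a2, the beta chain, stood at 0.0485, 0 and 0.0707 in Saline, 0.0306, 0.0629 and 0.0259 in OVA and 0.124, 0.134, 0.174 and 0.209 in Herb, all from row NM_013516, and its other 3 rows are listed at 0 throughout. Every Herb library lay above every Saline and OVA library for Ms4a2, on an estimated 12 fragments in all of Herb against 2.20 in Saline and 2.91 in OVA.

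Ms4a2 was called higher in Herb vs. OVA (0.16 ± 0.03 on the log2 scale, limma, adjusted p = 0.0144) and in Herb vs. Saline (0.16 ± 0.03, 0.0209). With a pseudocount of 0.1 the differences were 0.90 and 0.92, since a pseudocount of 1 is far above the level of this gene. After rescaling to the 75th percentile the first was 0.12 (adjusted p = 0.137) and the second 0.16 (0.0336). That fit without the filter called 1846 of 20819 gene sums in Herb vs. Saline, and the fit with the filter had 19.6% of gene sums called. The second lost its call after quantile normalization (0.13, 0.0669). The first call was lost without OVA replicate 1 (adjusted p = 0.0530) and the second without Saline replicate 1 (0.0540), Saline replicate 2 (0.0753) or Herb replicate 3 (0.0547).

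**Figure D4:**
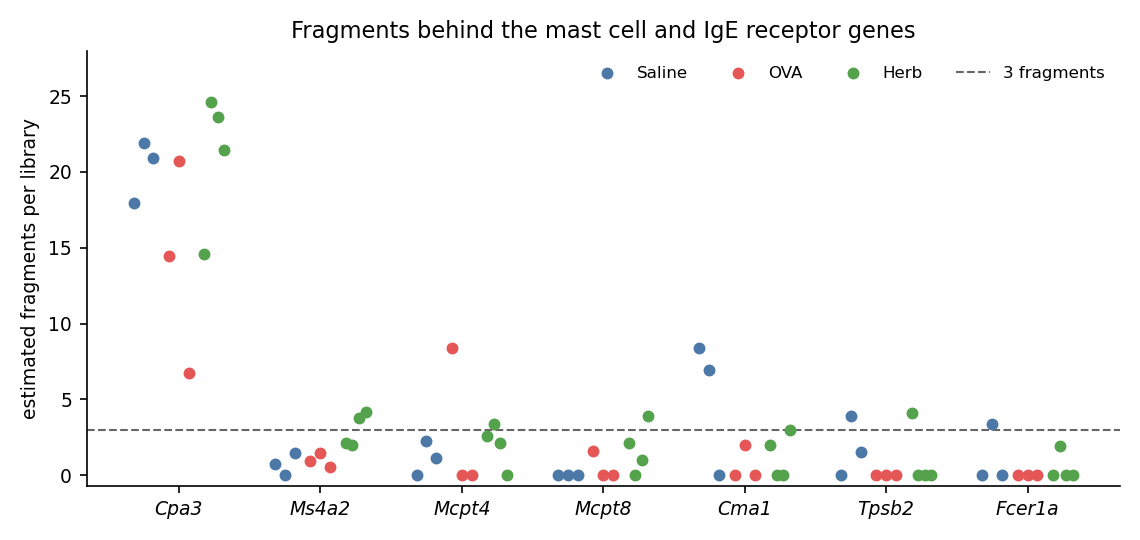
Estimated fragments per library (vertical axis) for the 7 protease and IgE receptor genes, with points for Saline, OVA and Herb libraries and a dashed line at 3 fragments. Cpa3 had 6.73 to 24.6 fragments in every library, and the other 6 genes lay at or under 8.39, many of them at 0.

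Ratios within a library, which do not depend on how the library was scaled except through the pseudocount, set Kit against the mast cell genes. The log2 ratio of Kit + 1 to Cpa3 + 1 was 2.32 ± 0.07 in Saline (SD, n = 3), 1.18 ± 0.28 in OVA (n = 3) and 2.0 ± 0.70 in Herb (n = 4). No OVA library reached the Saline values. The OVA vs. Saline difference of -1.14 gave p = 0.1 (two-sided exact permutation test, the smallest possible, adjusted to 0.206 over 9 tests), and that of Herb vs. OVA was 0.82 (exact p = 0.114, adjusted to 0.206). Cpa3 mostly lay below the added 1, so this ratio largely follows Kit. With a pseudocount of 0.1 the differences were -0.97 (exact p = 0.1) and 0.55 (exact p = 0.4). Kit against Fcer1a differed by -1.41 in OVA vs. Saline and 1.16 in Herb vs. OVA, with exact p = 0.1 and 0.0571, the smallest possible in each. Because Fcer1a is listed at 0 in 8 of 10 libraries, that ratio follows Kit alone. Kit against Kitl was -2.18 ± 0.10 in Saline (SD, n = 3), -1.30 ± 1.05 in OVA (n = 3) and -0.84 ± 0.64 in Herb (n = 4), and Herb vs. Saline differed by 1.34 (exact p = 0.0571, adjusted to 0.206). No ratio passed the adjusted threshold, which 3 or 4 libraries a group could not reach.

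Other genes of the Kit pathway were counted from a list of 22 signalling genes, of which 19 had a mean of at least 1 FPKM. As deposited 11 were lower and 0 higher in OVA vs. Saline, among them Lyn, a Src family kinase (17.9 ± 2.13 FPKM in Saline and 5.21 ± 1.35 in OVA, SD, n = 3, -1.62 on the log2 scale, limma adjusted p = 0.000302), and Stat5b, which carries the signal to the nucleus (-1.75, adjusted p = 0.0394). The share called over all gene sums was 61.2% as deposited, 43.3% at the 75th percentile, 36.3% after quantile normalization and 46.7% on the protein-coding sum, and these shares are the background of the list counts below. The list median of -0.83 lay close to that of all genes, -0.75. The direction turned with the scaling, with counts of higher and lower of 2 and 3 on the 75th percentile scale, 4 and 0 after quantile normalization and 6 and 0 on the protein-coding sum. In Herb vs. OVA 7 were higher and 0 lower as deposited, and none was called by limma under any of the other 3 scalings, where 1, 2 and 3 had an unadjusted p under 0.05. The share called over all gene sums in Herb vs. OVA was 44.5% as deposited and 0.482%, 1.44% and 5.29% under those scalings.

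IgE receptor signalling was represented by 15 of 16 listed genes. In OVA vs. Saline 0 were higher and 3 lower as deposited, against 61.2% called over all gene sums, with a median of -0.05 against -0.75 over all genes, and the counts became 6 higher and 1 lower, 7 and 1, and 12 and 0 under the 3 other scalings in the same order. Fcer1g, the gamma chain that is shared with Fc receptors of macrophages and other cells, was 9.99 ± 1.83 FPKM in Saline, 2.80 ± 0.583 in OVA and, with n = 4, 7.72 ± 2.31 in Herb (SD). It fell in OVA vs. Saline by 1.53 ± 0.24 on the log2 scale (limma, adjusted p = 0.000605) and by 0.90 on the 75th percentile scale (adjusted p = 0.00979). Ptpn6, an inhibitory phosphatase, differed by -0.50 as deposited (adjusted p = 0.0383) and 0.18 after rescaling (0.437). The receptor's signalling genes, which many leukocytes share, were thus well measured where its alpha and beta chains were not.

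The remaining mast cell list held 18 genes, and 9 of them were under 1 FPKM in every library. Of the 7 tested, 0 were higher and 4 lower in OVA vs. Saline as deposited, beside 61.2% called over all gene sums, and 1 and 2, 1 and 2, and 2 and 1 under the other scalings. Srgn, a granule proteoglycan that other blood cells and endothelium also make, was 43.0 ± 7.50 FPKM in Saline and 7.99 ± 2.43 in OVA (SD, n = 3), and fell by 2.32 ± 0.27 on the log2 scale (limma, adjusted p = 0.000164). Gata2, a transcription factor of mast cells and endothelium, was 4.29 ± 0.931 in Saline, 0.798 ± 0.471 in OVA and, with n = 4, 0.975 ± 0.519 in Herb (SD). It fell in OVA vs. Saline by 1.58 ± 0.27 (adjusted p = 0.000943) and in Herb vs. Saline by 1.45 ± 0.26 (0.00968). Both falls of Gata2 kept their call after rescaling to the 75th percentile (adjusted p = 0.0134 and 0.0148). Tpsab1, another tryptase, stood at 0.112, 0.195 and 0.0797 FPKM in Saline, and is listed at 0.0428, 0 and 0 in OVA and at 0, 0, 0 and 0.0629 in Herb. In limma without the filter it fell in OVA vs. Saline by 0.15 on the log2 scale (adjusted p = 0.0154) and in Herb vs. Saline by 0.15 (0.0355), and both calls were lost after rescaling to the 75th percentile (0.0849 and 0.0913). Of 7 basophil genes 2 were tested and Il3ra, a receptor chain for interleukin 3, was higher in OVA vs. Saline (0.73 ± 0.21, adjusted p = 0.0120). Prss34 is listed at 0 in all Saline libraries, at 0.0690, 0 and 0 FPKM in OVA and at 0.0483, 0, 0 and 0.168 in Herb. Cd200r3 stood at 0 to 0.0413 in Saline, 0.0734 to 0.292 in OVA and 0.120 to 0.325 in Herb. In limma without the filter it was higher in OVA vs. Saline (0.24, adjusted p = 0.0411) and Herb vs. Saline (0.26, 0.0474). After rescaling to the 75th percentile the adjusted p were 0.0210 and 0.0874.

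Genes of other cell types that can carry Kit, or that enter the airways in asthma, were counted too. The 15 genes of lung capillary endothelium summed to 928 to 1033 FPKM in Saline, 151 to 302 in OVA and 388 to 708 in Herb, without overlap between Saline and the other groups. In OVA vs. Saline 13 of 15 were lower and 0 higher, beside 61.2% of all gene sums called, with a median of -2.19 against -0.75 over all genes, and the counts of lower and higher were 9 and 0, 4 and 1, and 6 and 0 under the other 3 scalings (43.3%, 36.3% and 46.7% of all gene sums called). Cdh5, the cadherin of endothelial junctions, was 129 ± 15.2 in Saline, 13.3 ± 5.25 in OVA and, with n = 4, 43.1 ± 20.9 in Herb (SD), and fell in OVA vs. Saline by 3.25 ± 0.40 on the log2 scale (limma, adjusted p = 0.000193). Calcrl, Kdr, Gpihbp1 and Pecam1 differed by -3.97, -2.31, -2.20 and -1.49, each called as deposited. After rescaling to the 75th percentile, Calcrl (-3.23, limma, adjusted p = 0.00447) and Kdr (-1.57, 0.00181) kept their call. Gpihbp1 (-1.48, 0.111) and Pecam1 (-0.72, 0.129) lost it. In Herb vs. OVA 10 of the 15 were higher as deposited, where 44.5% of all gene sums were called, and 0 were called by limma under each other scaling, where 5, 2 and 2 had an unadjusted p under 0.05. None of the 15 is at 0 in a group, and their part in the Kit and Kitl values was not tested.

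Group 2 innate lymphoid cells were listed with 11 genes, 5 of them tested, which summed to 18.5 to 20.7 FPKM in Saline, 7.46 to 28.7 in OVA and 15.8 to 36.8 in Herb. Rora fell in OVA vs. Saline (-2.18 ± 0.28, limma, adjusted p = 0.000216) and Arg1, which macrophages also express, rose (2.49 ± 0.96, 0.0471). These were the only calls of the 5 tested as deposited, beside 61.2% of all gene sums called. Higher and lower counts were 2 and 1, 1 and 1, and 2 and 1 under the other scalings. On the 75th percentile scale Rora was at -1.60 (adjusted p = 0.00124) and Arg1 at 2.92 (0.0421). Gata3, under the filter, was lower in limma without it (-0.43, adjusted p = 0.0116) but not called on that scale (-0.05, 0.764). Il7r was not called (0.16, adjusted p = 0.878). Neutrophil genes summed to 44.4 to 491 FPKM in Saline, 10.5 to 38.8 in OVA and 46.6 to 140 in Herb. In OVA vs. Saline 4 of 8 tested genes were lower as deposited (61.2% of all gene sums called). Under the other scalings 3, 2 and 0 were lower. S100a8 of neutrophils differed by -2.78 (limma, adjusted p = 0.00657). S100a9, at 183 ± 213 FPKM in Saline and 0.317 ± 0.549 in OVA (SD, n = 3), was not called (-4.93, adjusted p = 0.0858). Eosinophil genes summed to 24.5 to 48.7, 5.41 to 11.7 and 11.4 to 16.9 FPKM, and Ear1 and Ear2 made up most of the sum in Saline. Of the 4 tested, 3 were lower in the same comparison, among them Ear1 (-2.88 ± 0.46, adjusted p = 0.00061) and Ear2 (-2.17 ± 0.36, 0.000695). Mean Ear1 was 20.5 FPKM in Saline and 2.03 in OVA, and mean Ear2 was 12.5 and 2.11, so the fall of the sum mainly follows these genes. Alox15 was higher (0.93 ± 0.28, adjusted p = 0.0169). The granule gene Prg2 is listed at 0 in all Saline libraries and stood at 1.25, 1.65 and 0.876 FPKM in OVA and 0.977, 0, 0.732 and 2.14 in Herb. It was called higher in OVA vs. Saline (1.16 ± 0.35, limma without the filter, adjusted p = 0.0272). Epx, another granule gene, stood at 0 to 0.0174 FPKM in Saline and 0.0316 to 0.0858 in OVA and was not called (adjusted p = 0.234). In lavage fluid, the study counted more eosinophils and neutrophils in OVA mice than in Saline mice. The RNA sums here are from lung tissue and are not cell counts. The part of these cell types in the member values was not tested.

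**Figure D5:**
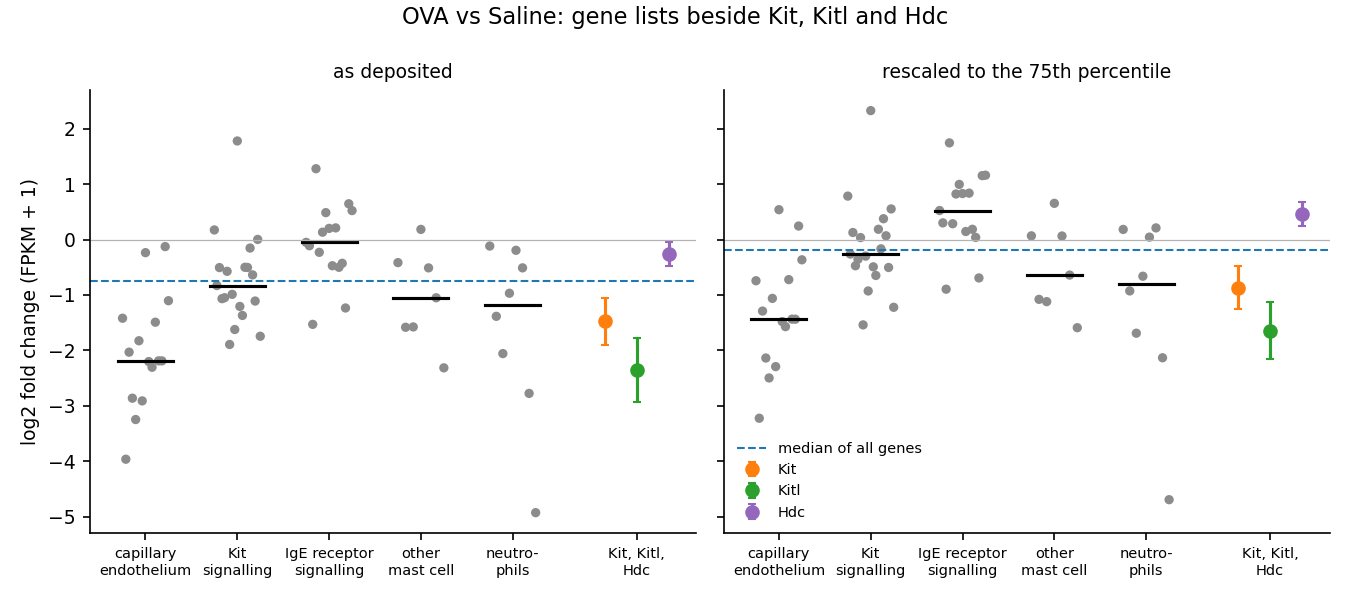
Log2 fold change of FPKM + 1 in OVA vs. Saline (vertical axis) for the tested genes of 5 lists (gray points, black line at the list median) and for Kit, Kitl and Hdc (± SE), as deposited and rescaled to the 75th percentile, with the median of all genes dashed. The endothelial list median lay at -2.19 and -1.44, below that of Kit signalling at -0.83 and -0.26, and Hdc moved from -0.26 to 0.46.

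The genes most like Kit across the 10 libraries, by Pearson correlation of log2(FPKM + 1) after rescaling to the 75th percentile, were Ppp2r1a (0.91), Klf16 (0.87), Snora30 (0.87), Mb (0.87) and Tiprl (0.86). The libraries share their group differences, so these are descriptions. Herb replicate 2, the highest library for Kit, was also the highest for Mb, the myoglobin gene of muscle, which stood at 15.1 FPKM there and at most at 3.89 elsewhere, and for Ppp2r1a, at 12.3 against at most 5.45. Without that library the leading genes were Prkag1 (0.97), Ifrd1 (0.96), Pum2 (0.96), Fam174a (0.96) and Nfs1 (0.96), none of them in the first list. For Cpa3 the leading genes were Des (0.91), Traf1 (0.85), Tek (0.84), Zcchc14 (0.84) and Bscl2 (0.83). Des, the desmin gene of muscle, was also highest in Herb replicate 2, at 13.1 FPKM against at most 6.51 elsewhere.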

How the data were processed

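Paired-end RNA-seq was made from lung tissue with 1 library per mouse. The submitters' processing notes name cutadapt 1.10, HISAT2, StringTie 1.3.3b and edgeR 3.16.5 with genome build mm10, and edgeR served the authors' own comparisons. The deposited table holds FPKM per transcript, scaled by the authors to mapped fragments with no further scaling between libraries, so a class of RNA that takes more fragments lowers all other values. Counts were not used here, and limma 3.58.1 in R 4.3.3 (lmFit, eBayes with trend) was fitted to log2(FPKM + 1) over all 10 libraries with 3 group means, in place of the study's count model.

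Features with a mean of at least 1 FPKM were tested (11205 gene sums, 30194 rows), p-values were adjusted by Benjamini-Hochberg over all of them, and calls have an adjusted p under 0.05. Members below the filter were taken from the fit without it. Fold changes of low genes are understated by the added 1. Ratios and shares in single libraries went into two-sided exact permutation tests (SciPy 1.17.1), whose smallest p is 0.1 for 3 against 3 libraries and 0.0571 for 3 against 4. Depth was read from the most frequent low value of FPKM times transcript length, which is 1 fragment, with lengths of GENCODE vM21 and RefSeq. Fragment numbers are estimates and cover no preparation error. Positions and promoters are from RefSeq GRCm38.p6, the assembly of mm10. The fit was also run on simulated data without a shift shared by most genes, so that run does not test such a shift.

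The members and gene lists were chosen with earlier results of these data known. Named genes are all members, up to 2 called genes in each direction per list in OVA vs. Saline, defining genes of cell types, and the 5 genes most like Kit and Cpa3. Alternatives were other scalings, a pseudocount of 0.1, no filter, no trend, only the compared groups, a replicate block and leaving out each library. Likeness without Herb replicate 2, and the 75th percentile together with a pseudocount of 0.1, were added after seeing the data.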

Additional observations from a re-analysis of the deposited data

Results flagged for a closer look

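Kit stood at 16.5 FPKM in Herb replicate 2, against 3.80 to 5.09 in the other Herb libraries, and the gap to the nearest library took 0.899 of the group's range, above Dixon's critical value for 4 libraries. Tpsb2 stood at 0.214 FPKM in Herb replicate 1 and is listed at 0 in the other three, a value that rests on an estimated 4.09 fragments. Fcer1a stood at 0.131 FPKM in Herb replicate 2 and is listed at 0 in the others, on an estimated 1.93 fragments. These are 3 of 20 results examined in this way. With the other libraries listed at 0, the ratio of Tpsb2 and of Fcer1a is 1 at any value above 0. The 20 results also share values and include rows listed at 0 throughout, so a chance rate of 1 in 20 does not hold for them. The causes were not tested.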

How the results depend on the processing

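Most of the 30 member results belong to the 7 protease and receptor genes, which apart from Ms4a2 were rarely called in any setting, so few could lose a call. Of 18 alternatives other than the filter, Ms4a2 was called in 12 for Herb vs. OVA and 13 for Herb vs. Saline. Kit in Herb vs. OVA was called in 5 of 18. Over all 30 results, 482 of 549 alternatives kept direction and side of the threshold, 31 lost a call, 11 gained one and 25 changed sign, 2 of these with a call. In OVA vs. Saline, Hdc was 0.46 after rescaling to the 75th percentile and 0.49 with a pseudocount of 0.1 added, 0.97 after quantile normalization and 1.15 on the protein-coding sum, the last 2 being the calls, and Cpa3 was 0.22 on the protein-coding sum. In Herb vs. OVA, Hdc was -0.15, -0.16, -0.35 and -0.38 under the same settings in that order, Mcpt4 -0.041 at the 75th percentile, -0.051 after quantile normalization and -0.079 on the protein-coding sum, and Kitl -0.030 on the protein-coding sum. In Herb vs. Saline, Kit was 0.079 after quantile normalization and 0.30 on the protein-coding sum, where Tpsb2 was 0.0037. Leaving out single libraries changed the sign of Cpa3 (-0.036 to 0.11), Tpsb2 (-0.10 to 0.023) and Fcer1a (-0.071 to 0.044) in Herb vs. Saline, of Mcpt4 (-0.066 to 0.10) and Ms4a2 (-0.027 to 0.022) in OVA vs. Saline and of Mcpt4 (-0.021 to 0.14) in Herb vs. OVA. Calls among gene sums (6853, 4982 and 2921 in OVA vs. Saline, Herb vs. OVA and Herb vs. Saline) moved most in Herb vs. OVA, to 54 after rescaling to the 75th percentile, 161 after quantile normalization, 593 on the protein-coding sum and 38 at the 75th percentile with a pseudocount of 0.1. Quantile normalization gave 4067 in OVA vs. Saline and 698 in Herb vs. Saline. Calls among transcript rows (13331, 9786 and 2443) came to 8265 and 144 in OVA vs. Saline and Herb vs. OVA at the 75th percentile, 7980 and 135 with a pseudocount of 0.1 added, 7045, 168 and 840 after quantile normalization, 257 and 4703 in Herb vs. OVA and Herb vs. Saline on the protein-coding sum, and 1312 in Herb vs. Saline with a pseudocount of 0.1 alone. As deposited 5.37% of calls in OVA vs. Saline were higher, against 31.5% after rescaling to the 75th percentile. Same-numbered libraries correlated at 0.00183 to 0.0869 and differently numbered ones at -0.163 to 0.218. The numbers were not treated as pairs, although values this small cannot exclude a link. With a replicate block gene sums gave 1342 calls in Herb vs. Saline and rows 5794 and 235 in Herb vs. OVA and Herb vs. Saline, and the calls of Kit in Herb vs. OVA (adjusted p = 0.0557) and of Ms4a2 in Herb vs. OVA (0.0508) and Herb vs. Saline (0.0766) were lost. Leaving out single libraries gave 6143 to 6862, 3225 to 5069 and 897 to 3224 gene sums and 10675 to 13463, 216 to 9300 and 207 to 3014 rows, and log2 ratios of Kit to Cpa3 of -1.30 to -1.04, 0.48 to 1.00 and -0.67 to -0.14, to Kitl of 0.31 to 1.34, -0.0076 to 1.02 and 1.09 to 1.57, and to Fcer1a of -1.54 to -1.27, 0.77 to 1.34 and -0.63 to -0.07. The share of NM_001122733 differed by -29.9 to -25.5, 11.4 to 24.1 and -16.9 to -4.10 percentage points. Where a rescaling ended a call, the cause was not tested. Depth limits the 7 protease and receptor genes, of which 6 had at most 8.39 fragments in a library.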
